A study of Arabidopsis thaliana with 6 samples.

Results

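Transcript levels of β-glucosidase (BGLU) genes were described in shoots of Arabidopsis thaliana seedlings in which β-estradiol switches on the transcription factor MYB112. The genes were taken from the platform annotation: every symbol that begins with BGLU and a digit, with a probe set (a group of array probes summarised as a single value) paired with that gene alone. This gave 20 genes, each with a single such probe set. Of these, 8 reached the filter, a value of 3.56 on the log2 scale in at least 2 of the 6 arrays, and 12 did not. The filter is the 40th percentile of all values in the table, and 14520 of the 22746 probe sets of genes reached it. RefSeq's table for TAIR10.1 holds 40 genes with a BGLU symbol, and genes of the family without a probe set of their own in the platform annotation were not analysed here.

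All seedlings carried the same inducible construct (MYB112-IOE, line 1) in the Col-0 background and were 2 weeks old. They were moved from agar to shaken liquid medium 16 h before treatment, and whole shoots were taken. The groups were shoots 5 h after 10 µM β-estradiol (n = 2), shoots 5 h after DMSO, the solvent control (n = 2), shoots 3 h after estradiol (n = 1) and shoots 3 h after DMSO (n = 1). The design is limited to a single transgenic line, plants lacking the construct but given estradiol were not analysed here, and no probe set carried the name MYB112 in the annotation, so its induction was not analysed here. Nothing in the labels says that the replicates came from separate flasks, so every p-value covers the spread of these arrays, which may be technical. In a whole shoot, fewer cells of a type and less RNA per cell cannot be told apart.

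β-Glucosidases of glycoside hydrolase family 1, the family these genes encode, remove glucose from small molecules. Plants store many hormones, defence compounds, flavonols and lignin precursors as inactive glucosides, made by UDP-glycosyltransferases, and a β-glucosidase sets the active part free. In the mustard family some members are myrosinases, which act on glucosinolates, and others fill the ER bodies, spindle-shaped compartments of the endoplasmic reticulum that take part in defence. Members of the family often lie side by side on the chromosome.

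Each estradiol array was set against the DMSO array of the same time and replicate number, called a pair here. Each pair had a lowest value of its own, 2.14 in pair 1 of 5 h, 2.16 in pair 2 of 5 h and 2.1 at 3 h. Over probe sets, arrays correlated at 0.994 to 0.998 (Pearson, rounded) with their partner and at most 0.968 with any array outside the pair. For this reason the pairs were handled as separately normalized, and levels are set side by side across pairs without a test. The median difference over all probe sets above the filter lay between −0.04 and 0.00 in the 3 pairs. The SD of the differences was 0.33 in pair 1 and 0.41 in pair 2 of 5 h and 0.26 at 3 h. The number of arrays limits the precision, and the values do not show signal over background.

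Of the 20 genes, 7 had values above the filter in all 6 arrays: BGLU15, BGLU16, BGLU25, BGLU33, BGLU40, BGLU42 and BGLU44. BGLU46 was above it in 4 arrays. The 12 genes under the filter were BGLU19, BGLU24, BGLU27, BGLU28, BGLU29, BGLU31, BGLU32, BGLU36, BGLU41, BGLU43, BGLU45 and BGLU47. In 9 of these 12 genes no value reached 2.5, and BGLU19, BGLU24 and BGLU41 stood at the lowest value of the array in all 6. The filter separated BGLU46, just inside, with values of 2.38 to 4.12, from BGLU47, just outside, with values of 2.51 to 3.34. BGLU28, known to act in the breakdown of glucosinolates when sulfur is short, had 3.03 with estradiol and 2.92 with DMSO in pair 1 of 5 h, 2.16 in both arrays of pair 2, and 2.35 with estradiol and 2.29 with DMSO at 3 h. Values this close to the lowest of the array carry no order.

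**Figure D1:**
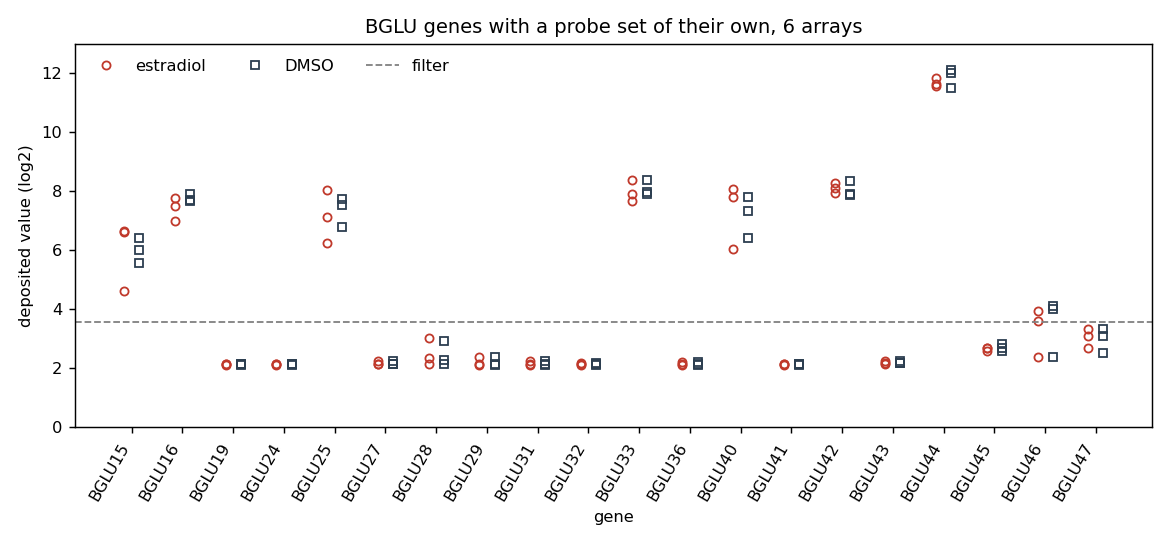
Deposited log2 values (vertical axis) of the 20 BGLU genes with a probe set of their own, with estradiol arrays as circles left of DMSO arrays as squares (3 arrays each) and the filter of 3.56 as a dashed line. The 8 genes above the line reached it in at least 2 arrays, and no value of the other 12 exceeded 3.34.

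Some side by side genes differed in whether they were measured above the filter, and others did not. In the order of protein-coding genes of the TAIR10.1 annotation, 4 of the 8 genes above the filter have an immediate neighbour of the family that stayed under it. Of all 20 genes, 12 stayed under it. On chromosome 2, BGLU15 is followed by BGLU28 and BGLU29, both under the filter. On chromosome 3, BGLU16 lies next to BGLU27, which had values of at most 2.24, and BGLU44 lies next to BGLU43, which had values of at most 2.25. On chromosome 1, BGLU46 lies next to BGLU45, which had values of 2.59 to 2.84. BGLU31 and BGLU32, neighbours on chromosome 5, were both under the filter. Levels of different probe sets are not on one scale, so these are statements about the filter and not about which neighbour had more transcript.

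Among the 8 genes above the filter, BGLU15 encodes an enzyme that hydrolyses flavonol bisglycosides, glucosides of the flavonols kaempferol and quercetin that also carry rhamnose. BGLU15 had 6.66 with estradiol against 6.42 with DMSO in pair 1 of 5 h, 4.63 against 5.59 in pair 2, and 6.61 against 6.01 at 3 h. The estradiol array was higher in pair 1 of 5 h and at 3 h and lower in pair 2, and the values of the treatments overlapped. The difference at 3 h, 0.60 or a fold of 1.52, was larger in size than that of 96.9% of probe sets in that pair, and the one in pair 2 of 5 h, −0.96 or a fold of 0.514, was larger than that of 96.6%. Over the 3 pairs the mean difference was −0.04 (SD 0.82, n = 3 pairs), the widest spread among the 8 genes.

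BGLU42 encodes a β-glucosidase known from roots, where it releases coumarins for iron uptake and is needed for systemic resistance induced by root bacteria. BGLU42 had 8.10 and 7.95 in the estradiol arrays of 5 h, against 7.87 and 7.93 in the DMSO arrays, and 8.29 with estradiol against 8.35 with DMSO at 3 h. All 6 values fell within 7.87 and 8.35, with percentiles of 74.5 to 76.8 within their arrays. The mean difference was 0.06 (SD 0.15, n = 3 pairs).

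BGLU46, with its neighbour BGLU45, encodes an enzyme that acts on glucosides of monolignols, the building blocks of lignin. Its values were 3.95 and 3.62 in the estradiol arrays of 5 h, against 4.12 and 4.02 in the DMSO arrays. At 3 h both arrays held 2.38, near the lowest value of the array. At 5 h both estradiol arrays were under both DMSO arrays, at −0.17 and −0.40 within pairs. Such a separation was seen for 3 of the 8 genes, BGLU46, BGLU44 and BGLU16, and for 9.61% of all probe sets above the filter. The reverse, both estradiol arrays above both DMSO arrays at 5 h, was seen for BGLU42 alone among the 8 and for 8.49% of all probe sets. Both counts set deposited levels of pair 1 beside those of pair 2, and the array medians differed. They were 5.46 with estradiol and 5.4 with DMSO in pair 1, and 5.04 and 5.12 in pair 2. Which genes separate can therefore depend on the scaling, which was not tested here. The level at 3 h was not tested against that at 5 h, since the pairs were handled as separately normalized.

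BGLU44 encodes an enzyme reported to act on mannose-containing oligosaccharides as well as on glucosides. BGLU44 had 11.59 and 11.83 in the estradiol arrays of 5 h, against 12.02 and 12.13 in the DMSO arrays, and 11.66 with estradiol against 11.5 with DMSO at 3 h. Its percentile within the arrays was 96.0 to 98.2. At 5 h both deposited estradiol values were under both DMSO values, and at 3 h the estradiol value was the higher. The differences within pairs were −0.43 and −0.30 at 5 h and 0.16 at 3 h.

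For the other 4 genes no role is given here. BGLU16 had 7.51 and 6.99 in the estradiol arrays of 5 h, against 7.93 and 7.72 in the DMSO arrays, and 7.78 with estradiol against 7.69 with DMSO at 3 h. As in BGLU44, both estradiol values at 5 h lay under both DMSO values. The 3 DMSO arrays differed by 0.24, the narrowest range among the 8 genes, and the difference in pair 2 of 5 h, −0.73, was larger in size than that of 93.0% of probe sets.

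BGLU25 had 7.12 with estradiol against 7.53 with DMSO in pair 1 of 5 h, 6.25 against 6.81 in pair 2, and 8.04 against 7.73 at 3 h. The deposited values of the treatments overlapped at 5 h, where pair 2 lay lower than pair 1 in both treatments. Within both pairs of 5 h the estradiol array was lower, at −0.41 and −0.56. BGLU40 had 8.08 with estradiol against 7.34 with DMSO in pair 1 of 5 h, 6.04 against 6.42 in pair 2, and 7.82 against 7.81 at 3 h. Its 5 h pairs went in opposite directions, at 0.74 and −0.38, and the difference in pair 1 was larger in size than that of 96.5% of probe sets there.

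BGLU33 had 7.93 and 7.66 in the estradiol arrays of 5 h, against 7.98 and 7.93 in the DMSO arrays, and 8.38 with estradiol against 8.39 with DMSO at 3 h. It was the only one of the 8 lower in all 3 pairs, where 17.1% of all probe sets above the filter were, with differences of −0.05 and −0.27 at 5 h and −0.01 at 3 h, the last of them above 0 (0.04) after quantile normalization. The plot of each array shows that BGLU15, BGLU25, BGLU33 and BGLU40 had their lowest estradiol and DMSO values in pair 2 of 5 h.

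**Figure D2:**
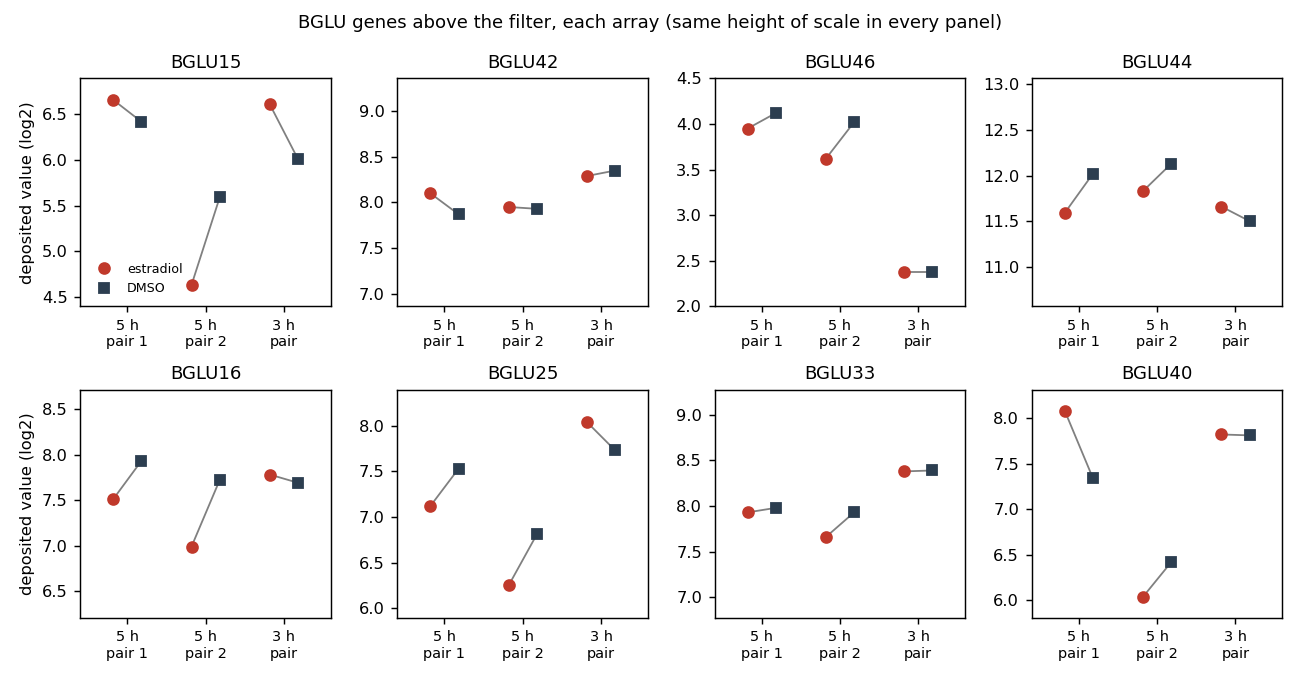
Deposited log2 values (vertical axis) of the 8 BGLU genes above the filter in each pair of arrays, with estradiol (circle) left of DMSO (square) and a line joining the arrays of a pair. Every panel spans the same height, and the slopes of BGLU44, BGLU16 and BGLU25 run one way in both 5 h pairs and the other way at 3 h.

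The comparison at 5 h, with 2 arrays per treatment, asks for genes that respond early to MYB112. None of the 8 BGLU genes passed the test at 5 h, and the 95% intervals of BGLU44, BGLU16 and BGLU25 lay below 0. With the pair as a block, limma gave −0.365 for BGLU44 (95% confidence interval −0.61 to −0.12), −0.575 for BGLU16 (−1.06 to −0.09) and −0.485 for BGLU25 (−0.90 to −0.07). The limma adjusted p was 0.594 for each, so none of them holds after the correction over 14520 probe sets. An unadjusted p under 0.05 was reached by 3 of the 8 genes and by 7.94% of all probe sets (limma). Without the block it was reached by 0 of the 8 genes and by 1.13% of all probe sets, and the intervals of BGLU44, BGLU16 and BGLU25 include 0. Called probe sets were 0 of 14520 (0%), and with 1 residual degree of freedom the test relies on the spread shared over probe sets.

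The other 5 genes had limma adjusted p-values of 0.597 to 0.863 at 5 h. BGLU46 was at −0.285 (95% confidence interval −0.66 to 0.09), BGLU33 at −0.16 (−0.55 to 0.23) and BGLU42 at 0.125 (−0.25 to 0.50). BGLU15 was at −0.36 (−1.84 to 1.12) and BGLU40 at 0.18 (−1.20 to 1.56), and for these a 2-fold difference in either direction lies within the interval. Differences of 2-fold were not measured in any of the 8 genes in any pair, where 1.55% of all probe sets were 2-fold apart in pair 1 of 5 h, 3.13% in pair 2 and 0.675% at 3 h.

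Over both times the fit took the mean difference of the 3 pairs, which does not require a response at each time. BGLU16 had a mean difference of −0.35 (SE 0.19, n = 3 pairs, limma adjusted p = 0.551), the largest in size among the 8 genes. At 3 h alone it was at 0.09. Without the 3 h pair BGLU16 was at −0.575. Without pair 2 of 5 h it was at −0.165, and BGLU15, at 0.42, and BGLU40, at 0.375, were larger in size. BGLU44 and BGLU46 were at −0.19 each (adjusted p = 0.618 and 0.535), BGLU25 at −0.22 (0.669) and BGLU33 at −0.11 (0.625). BGLU40 was at 0.12 (0.845), BGLU42 at 0.06 (0.756) and BGLU15 at −0.04 (0.976). An unadjusted p under 0.05 was reached by 0 of the 8 genes and by 9.75% of all probe sets (limma, pair as a block). Called were 0 of 14520 probe sets (0%) with the block and 1 (0.00689%) without it, which is no BGLU gene.

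**Figure D3:**
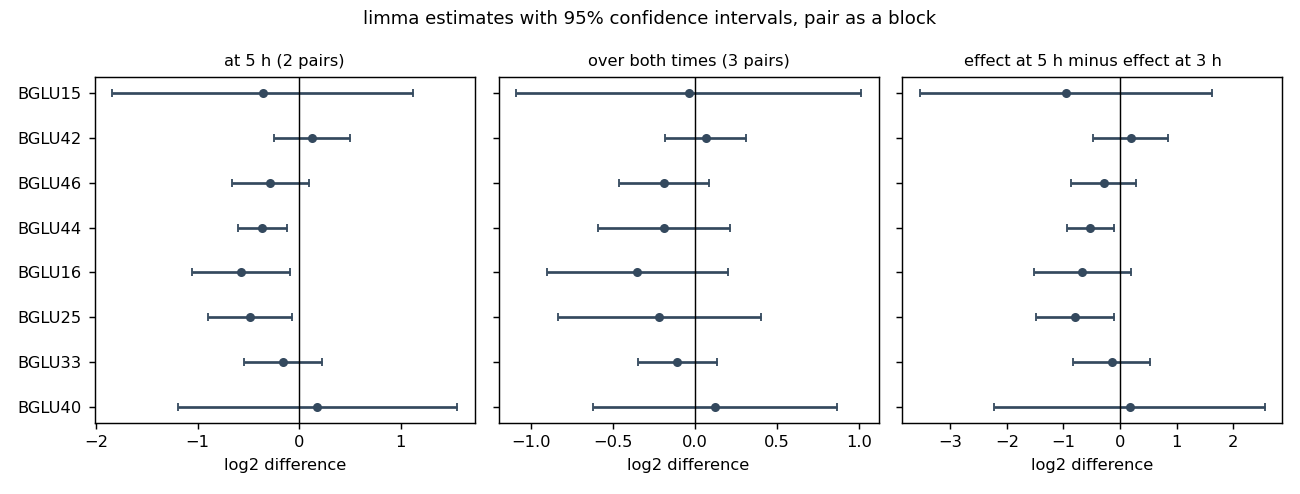
Estimates on the log2 scale (horizontal axis, a separate scale in each panel) of estradiol minus DMSO at 5 h and over both times, and of the effect at 5 h minus the effect at 3 h, for the 8 BGLU genes, with limma 95% confidence intervals not adjusted for the number of probe sets. The intervals of BGLU44, BGLU16 and BGLU25 lie below 0 at 5 h, and all 8 include 0 over both times.

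Whether the estradiol effect changed with time was asked by setting the 5 h pairs against the 3 h pair. BGLU44, BGLU16 and BGLU25 were lower with estradiol in both 5 h pairs and higher at 3 h, a pattern shared by 7.59% of all probe sets above the filter. BGLU42 was lower at 3 h (−0.06) and higher in both 5 h pairs (0.23 and 0.02). With it, 4 of the 8 genes had opposite signs at the times, as did 16.7% of all probe sets. BGLU25 was at −0.41 and −0.56 at 5 h, against 0.31 at 3 h, a difference of −0.795 (limma, 95% confidence interval −1.49 to −0.10). For BGLU44 the difference was −0.525 (−0.94 to −0.11), and for BGLU16, at −0.42 and −0.73 against 0.09, it was −0.665 (−1.52 to 0.19). The limma adjusted p was 0.988 for each, and 0 of 14520 probe sets (0%) were called. At an unadjusted p under 0.05 stood 2 of the 8 genes and 2.93% of all probe sets. The single 3 h pair was assumed to vary like the 5 h pairs. BGLU15 had the largest size of difference, −0.96 (−3.54 to 1.62), and its interval is too wide to give a direction.

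Read as a family, the 8 genes had a median difference of −0.11 in pair 1 of 5 h, −0.39 in pair 2 and 0.05 at 3 h, against 0.00, −0.04 and −0.01 over all probe sets above the filter. Estradiol arrays were lower for 5 of the 8 genes in pair 1 of 5 h, 7 in pair 2 and 2 at 3 h, against 39.3%, 55.3% and 50.1% of all probe sets. At 3 h 5 of the 8 genes and 35.7% of all probe sets were higher with estradiol, and after quantile normalization or median centring 6 of the 8 genes and 53.3% or 49.9% of all probe sets were. The share of all probe sets that were lower at 5 h depends on scaling: in pair 1 it was 54.4% after quantile normalization and 60.5% with arrays centred on their median, and in pair 2 48.3% and 43.5%, with 5 and 7 of the 8 genes lower under each. In both 5 h pairs together, 5 of the 8 genes were lower and 1 was higher, against 27% and 24.2% of all probe sets. Outside the 5th to 95th percentile of all probe sets lay 4 of the 24 differences, against 9.76% of those of all probe sets: BGLU40 in pair 1, BGLU15 and BGLU16 in pair 2, and BGLU15 at 3 h. The median SD over the 3 pairs was 0.36 for the 8 genes and 0.17 for all probe sets above the filter, and BGLU33 and BGLU42 had SDs of 0.14 and 0.15.

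**Figure D4:**
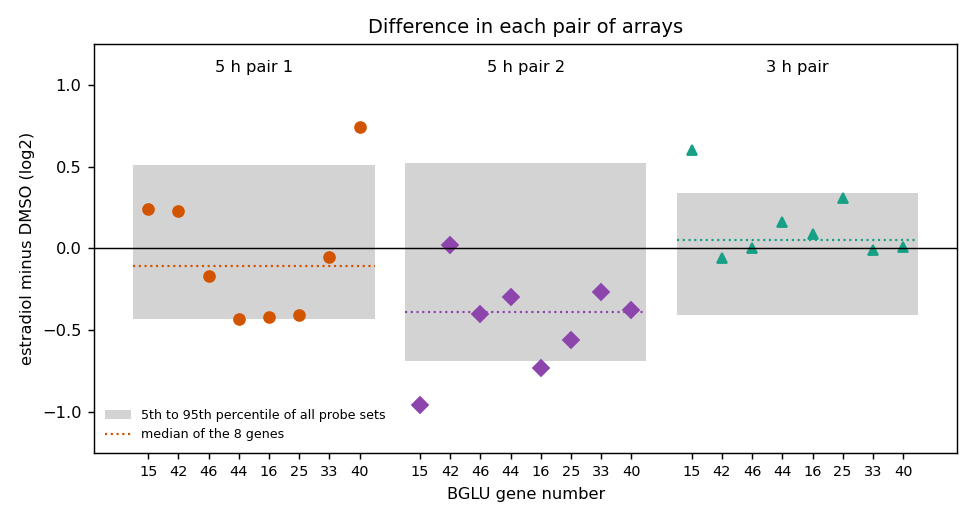
Estradiol minus DMSO on the log2 scale (vertical axis) in each pair for the 8 BGLU genes (horizontal axis, by number), with the median of the 8 as a dotted line and the 5th to 95th percentile of all probe sets above the filter in grey. In pair 2 of 5 h, 7 of the 8 genes lie below 0 and their median is −0.39, while at 3 h the median is 0.05.

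Of the shoot markers, RCA and the light-harvesting genes LHCB4.1 and LHCB4.2 had values of 12.63 to 13.84 in all arrays, while the root hair genes EXPA7 and EXPA18 had at most 2.96. FMA regulates guard cells and myrosin cells, the cells that hold myrosinases, while SPCH and MUTE regulate guard cell formation. FMA and SPCH were at −1.17 and −1.29 in pair 2 of 5 h, at −0.38 and 0.03 in pair 1 and at 0.07 and −0.04 at 3 h. MUTE and the trichome gene TRY stayed under the filter, with values of 2.11 to 2.70, and no seed or flower marker was named. The 2 regulators that reached the filter were thus lower in pair 2, as were 7 of the 8 BGLU genes and 55.3% of all probe sets. Their estradiol values in that pair, 3.41 for FMA and 3.17 for SPCH, lay under the filter value. Their part in the BGLU values was not tested.

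Of the related genes, the ER body list had 7 named genes, all above the filter, and 0 passed the test (limma, 5 h and both times). PYK10, the main ER body β-glucosidase, belongs to the family under another symbol and is known as an abundant root protein. PYK10 had 12.4 with estradiol against 12.02 with DMSO in pair 1 of 5 h, 11.34 against 11.46 in pair 2, and 11.84 against 11.32 at 3 h. Its differences of 0.38, −0.12 and 0.52 gave a mean of 0.26 (SD 0.34, n = 3 pairs, limma adjusted p = 0.566). NAI1, the transcription factor needed for ER bodies, was at 0.18, −1.23 and 0.41 in pair 1 and pair 2 of 5 h and at 3 h. NAI2, an ER body component, was at 0.23, −1.02 and 0.13, and JAL22, a jacalin-related lectin, at 1.04, −0.30 and 0.61. All 7 genes of the list were higher with estradiol at 3 h and 6 of 7 in pair 1 of 5 h, against 35.7% and 47.7% of all probe sets above the filter. After quantile normalization or median centring these counts of list genes stayed the same. The share of all probe sets was then 53.3% or 49.9% at 3 h, and 43.8% or 38.0% in pair 1. In pair 2 of 5 h, 6 of 7 were lower, against 55.3% of all probe sets. The 5 h pairs thus disagreed in sign for this list. ATA27, a tapetum β-glucosidase, was at the lowest value of each array.

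UDP-glycosyltransferases, not all of which add glucose, were read from the same annotation, and 0 genes of these lists passed (limma). Of the monolignol and coumarin list, 3 of 7 named genes were above the filter. UGT72E1, which glucosylates monolignol aldehydes, was at −0.88 and −1.10 at 5 h and −0.15 at 3 h (limma adjusted p = 0.506 over both times). UGT72E2, which forms coniferin and syringin, was at 1.12 and 0.57 at 5 h and 0.00 at 3 h (adjusted p = 0.522). In pair 2 of 5 h both UGT72E2 values lay under the filter value, at 3.31 with estradiol and 2.74 with DMSO. Beside them BGLU46, on the hydrolysing side, was at −0.17, −0.40 and 0.00. For flavonols, UGT78D1 was at 0.06, 0.08 and −0.12, UGT78D2 at 0.34, −0.36 and −0.29, and UGT78D3 was under the filter, where BGLU15 was at 0.24, −0.96 and 0.60.

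Among the cytokinin glucosyltransferases, UGT76C2 was lower in all 3 pairs, at −0.60, −0.64 and −0.27 (limma adjusted p = 0.500). UGT76C1 was at 0.22, −0.19 and 0.00, and UGT73C1 at 0.33, 0.00 and −0.39. The values of UGT73C1 at 5 h, 2.16 to 3.01, lay under the filter value. UGT71C5, which forms the glucosyl ester of abscisic acid, was at 0.06, −0.10 and −0.34, and UGT71B6 and UGT71B8 were under the filter. Of 10 other glycoside hydrolases (β-galactosidases and xyloglucan-modifying enzymes), 5 were above the filter, 0 passed, and XTH33 was at −0.86 and −1.04 at 5 h and −0.06 at 3 h (limma adjusted p = 0.519). The lists of glucosinolate breakdown partners, of sugar starvation genes and of phosphate starvation genes had 0 named genes.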

How the data were processed

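RNA of each sample was hybridised to its own Affymetrix ATH1 array. The values deposited by the authors are on a log2 scale, 1 for each probe set of an array. Per the submitters' processing notes, GCRMA and RMA were among the tools, with no version or role stated. No source used here names the log base; base 2 was read from the range of 2.1 to 15.35, and all fold values rest on it. Of 22810 probe sets, 64 controls were left out. Names came from the platform annotation (13513 probe sets with 1 gene, 503 with several, 8730 not listed) and were updated through the RefSeq table (13436 matched). No coordinates or sequences are printed.

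Tests used limma 3.58.1 in R 4.3.3 with the pair as a block. The settings were lmFit and eBayes with trend, two-sided, p adjusted by Benjamini-Hochberg over 14520 probe sets, threshold 0.05. The block was used since the pairs look separately normalized, although no source states it. Deviations from the treatment means correlated at 0.927 and 0.907 in the 5 h pairs and 0.940 in the 3 h pair. These deviations also hold the difference between times. Free of time, replicate 1 minus replicate 2 at 5 h correlated at 0.907 between estradiol and DMSO. The 3 h pair alone has no test. The residual degrees of freedom were 2 over both times and 1 at 5 h and for the difference between times. The fits over both times and at 5 h were also run on simulated data with known changes. How many of these changes they recovered is not reported here. Alternatives were the fit without the block, other filters, quantile normalization, median centring, eBayes without trend and leaving out pairs or arrays. The genes and lists were chosen with earlier results of these data known. All BGLU genes were named; of other lists, all genes of lists with at most 6, otherwise those 2-fold apart in any pair.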

Additional observations from a re-analysis of the deposited data

Results flagged for a closer look

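In 4 of the 8 BGLU genes the sign in both 5 h pairs was the reverse of that at 3 h, where 16.7% of all probe sets above the filter did so. The effect at 5 h minus that at 3 h was −0.525 for BGLU44, −0.665 for BGLU16, −0.795 for BGLU25 and 0.185 for BGLU42, each with a limma adjusted p of 0.988 (pair as a block). The 3 h differences of BGLU16 (0.09), BGLU42 (−0.06) and BGLU44 (0.16) lie within 1 SD of the differences over probe sets there, 0.26. BGLU42 was at 0.02 in pair 2 of 5 h, where only 6.89% of probe sets had a difference smaller in size. Groups of 1 or 2 arrays are too small for a search for single arrays that stand apart.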

How the results depend on the processing

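No BGLU gene passed under any alternative run, and the lowest adjusted p was 0.355 (BGLU16 at 5 h, arrays centred on their median; 0.355 to 1 over its alternatives). Of 245 values of the 8 genes under alternatives, 233 kept their direction. Many of these could not turn, since the fit without the block, other filters and eBayes without trend leave the estimate itself unchanged. The 12 that turned all came from leaving out a pair or an array. Leaving these out in turn gave −0.48 to 0.69 for BGLU40, −0.53 to 0.63 for BGLU15, −0.48 to 0.10 for BGLU25 and −0.02 to 0.12 for BGLU42 over both times, −0.38 to 0.74 for BGLU40 and −0.96 to 0.24 for BGLU15 at 5 h, and −0.39 to 0.73 for BGLU40 in 5 h minus 3 h. Over both times BGLU16 was at −0.575 to −0.14, BGLU44 at −0.365 to −0.07, BGLU46 at −0.285 to −0.07 and BGLU33 at −0.17 to −0.02, below 0 in each. The median of the 8 genes over both times was −0.15, and −0.32 to −0.04 with a pair left out (−0.04 without pair 2 of 5 h, −0.32 without the 3 h pair). At 3 h, 1 gene (BGLU15) was at least 1.5-fold apart, against 0 at 2-fold. The BGLU15 difference was larger in size than that of 96.9% of probe sets in that pair, and 0.675% were 2-fold apart. With no replicate block limma called 1 probe set in each of the comparisons at 5 h and over both times, against 0 with the pair as a block, and 0 BGLU genes either way. The called number was also 1 at 5 h after quantile normalization and 4 after centring, and over both times 1, 2 and 1 after quantile normalization, centring and a stricter filter, while the fit of 5 h minus 3 h with no filter called 57 of 22746. BGLU46 was below the stricter filter. As each gene had a single probe set, averaging probe sets changed nothing. The cause of these changes was not tested.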

Other observations

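A probe set that the platform annotation pairs with 2 BGLU genes, and that is therefore given to neither, was higher with estradiol in 3 of 3 pairs, where 12.1% of probe sets above the filter were. It had 8.92 with estradiol against 8.53 with DMSO in pair 1 of 5 h, 4.21 against 4.06 in pair 2, and 7.12 against 6.29 at 3 h. The mean difference was 0.46 (SE 0.17, n = 3 pairs) and did not pass (limma adjusted p = 0.519). Its level in pair 2 of 5 h was lower in both treatments than in the other pairs, a contrast of levels across pairs that was not tested.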
